A study of Mus musculus with 8 samples.

Results

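Contractile myofibroblast genes encode the machinery by which an activated fibroblast pulls on its surroundings. Smooth muscle alpha-actin (*Acta2*) is built into stress fibres together with tropomyosins, calponin, caldesmon and myosin light chains, and its appearance in a fibroblast is the usual sign of a myofibroblast. Much of this set is driven by serum response factor (SRF), which binds the CArG box of its targets with the help of myocardin-related cofactors that respond to the state of actin. Transforming growth factor beta, acting through SMAD proteins, and the stretch-sensitive coactivators YAP and TAZ, acting through TEAD factors, are known to raise several of the same genes. In the spleen, contractile stromal cells line the trabeculae and the reticular network on which lymphocytes sit.

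The set held 10 members: *Acta2*, *Tagln*, *Cnn1*, *Myl9*, *Tpm1*, *Tpm2*, *Cald1*, *Actg2*, *Ccn2* and *Postn*. All probes annotated with 1 of these symbols were taken, which gave 15 probes for 9 of the 10 members, out of 16593 genes with a symbol on the array. No probe carried the symbol *Myl9*, a regulatory light chain of smooth muscle myosin, so this gene was not analysed here. A probe was kept for testing when its signal was detected above the negative control beads (detection p below 0.05) on at least 4 of the 8 arrays, and 11 probes of 7 members were kept.

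The arrays measured total RNA of mSSC, a stromal cell line that carries yellow fluorescent protein and was immortalized from E18.5 embryonic spleen (strain C57BL6/N) and taken at passages 2 to 6. In the control group the stroma was cultured with primary splenic B cells of adult mice of matching age, and in the leukemic group with primary splenic B cells of highly leukemic adult Eμ-TCL1 mice, in which a human TCL1 transgene active in B cells causes a disease like chronic lymphocytic leukemia (CLL). Both groups were given 20 B cells per stromal cell, according to the labels, for 40 to 48 h and were then sorted to separate the stroma from the B cells, and each group holds 4 arrays. Every sample comes from 1 immortalized line cultured with B cells, and no array of stroma cultured alone was analysed here. The labels do not say whether replicates were separate cultures, so each p-value reflects the spread among these arrays, which may be technical.

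The 8 arrays shared 1 chip, on which control and leukemic positions took turns, and 13504 to 13938 of the 25697 probes were detected on each. The fibroblast markers *Pdgfra*, *Pdgfrb* and *Thy1* were detected on all 8 arrays, and 19 of the 26 smooth muscle and SRF target genes on the array had a probe that was kept, without *Myh11*, *Myocd* and *Synpo2*. Of the endothelial markers, *Flt1* and *Plvap* were detected on all 8 arrays on 1 probe each and *Cdh5* on none. The array of leukemic replicate 4 stood apart. Its mean correlation with the other arrays, across probes, was 0.965 against 0.983 to 0.987 for the rest, and 20 of 32 B cell marker probes were detected on it against 9 to 12 on the control arrays and 12 to 14 on the other leukemic arrays. The summed normalized signal of the B cell markers was 9821 on this array, 1372 to 1948 on the other leukemic arrays and 918 to 1236 on the control arrays, while the pan-leukocyte gene *Ptprc* and the B cell gene *Ms4a1* were not detected on any array. In such bulk samples, more RNA of a type per cell and more cells of that type cannot be told apart.

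Regulatory sequence was available for some members, and it is shown because SRF acts through short motifs close to the start of its targets. The RefSeq promoter table (GRCm38.p6) held 9 promoters of 7 members, each 250 bases before and 50 bases after the transcription start, and *Tagln*, *Actg2* and *Ccn2* were not in it. The first sequence below is that of *Acta2*, the member with the most probes. The second is that of *Myl9*, the member with an exact CArG box. The third is that of *Tpm1*, the member with the smallest difference between groups. All are printed 5′ to 3′ on the strand of the gene, and capitals mark a CArG box that is exact or has 1 mismatch in its inner bases.

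Acta2, chr19:34255324-34255623, minus strand: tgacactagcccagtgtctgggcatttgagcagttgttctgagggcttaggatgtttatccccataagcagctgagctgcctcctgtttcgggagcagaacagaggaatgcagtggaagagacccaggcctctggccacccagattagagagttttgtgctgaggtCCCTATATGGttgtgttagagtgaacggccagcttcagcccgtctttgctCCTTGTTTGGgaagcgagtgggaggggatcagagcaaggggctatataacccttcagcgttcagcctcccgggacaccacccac
Myl9, chr2:156775214-156775513, plus strand: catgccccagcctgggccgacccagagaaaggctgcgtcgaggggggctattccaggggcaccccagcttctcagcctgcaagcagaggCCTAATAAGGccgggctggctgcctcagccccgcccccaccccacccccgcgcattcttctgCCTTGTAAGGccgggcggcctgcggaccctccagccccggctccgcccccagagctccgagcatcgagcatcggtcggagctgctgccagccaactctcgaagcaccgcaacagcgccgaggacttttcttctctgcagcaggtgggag
Tpm1, chr9:67049164-67049463, minus strand: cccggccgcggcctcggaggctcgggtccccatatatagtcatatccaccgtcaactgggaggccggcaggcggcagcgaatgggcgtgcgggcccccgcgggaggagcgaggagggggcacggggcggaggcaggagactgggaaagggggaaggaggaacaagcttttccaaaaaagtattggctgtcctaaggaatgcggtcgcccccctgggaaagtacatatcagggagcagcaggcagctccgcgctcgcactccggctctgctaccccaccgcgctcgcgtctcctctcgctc

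The *Acta2* window held a pair of CArG-like matches, which began 84 and 34 bases before the start. The *Tpm1* window held none. Over the 9 member promoters, an exact CArG box was found in 1 and a box with at most 1 inner mismatch in 2, against 1.63% and 9.99% of all 32817 promoters of the same length. The TEAD motif CATTCC, searched on both strands, was present in 3 of the 9 member promoters (*Acta2*, *Tpm1* and 1 of those of *Cald1*) and in 14.7% of all promoters. The SMAD motif CAGAC, also searched on both strands, was present in 5 of the 9 and in 49.6% of all. The motifs do not overlap in these windows. A match describes the letters in the window and no binding was measured.

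The main question was whether culture with leukemic rather than control B cells changed the contractile genes of the stroma. Of the 11 probes kept, 8 had a higher mean in the leukemic group, as did 48.8% of all probes kept, and none passed the threshold of the rank product, the test named in the study's methods. The rank product orders all probes within each leukemic-against-control array pair and gives q, the estimated share of false positives, and 0.05 was the threshold. Of all 13732 probes kept, 0.371% rose and 0% fell by this test. The median log2 difference, leukemic minus control, was 0.25 over the 11 member probes and -0.0061 over all probes kept. Because *Acta2* alone has 4 of these probes, the members were also counted with 1 probe per gene. Then 5 of 7 were higher in the leukemic group, and their median was 0.24. With no filter on detection, the median over 15 member probes was 0.13. The second test, limma, uses each probe's own spread between arrays. After Benjamini-Hochberg adjustment over all probes, 0% of them passed 0.05 in either direction, and the smallest adjusted p of any probe was 0.600. At an unadjusted limma p under 0.05, 2 member probes were higher and 1 was lower, against 3.83% and 4.42% of all probes.

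**Figure D1:**
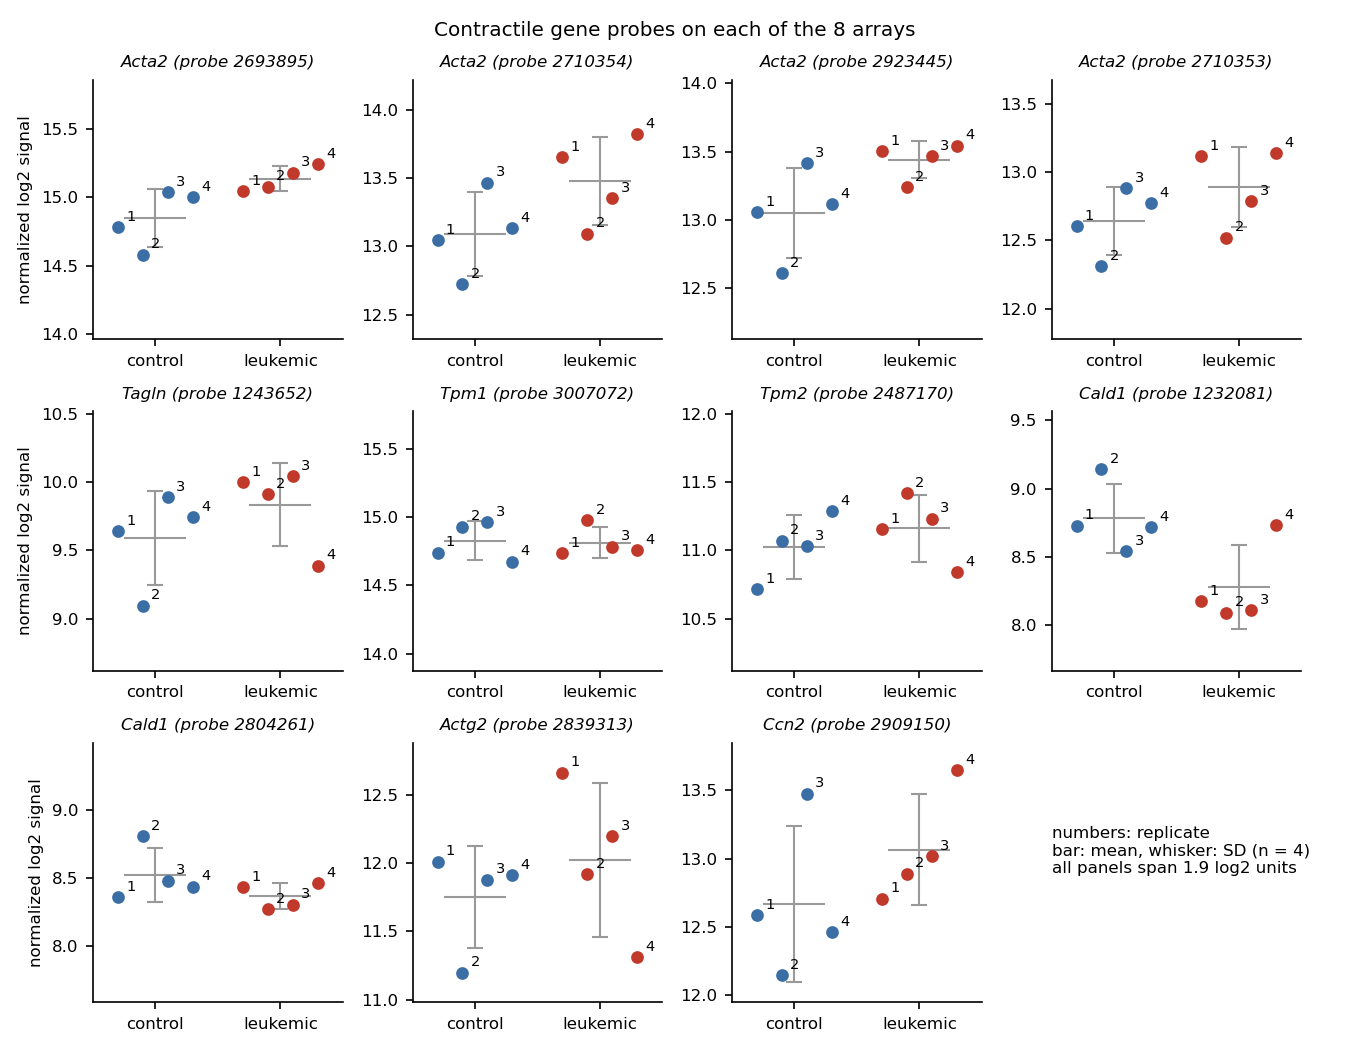
Normalized log2 signal (vertical axis) of the 11 contractile gene probes that were kept, for the control and the leukemic group, with 1 point per array numbered by replicate, the mean as a bar and the SD as a whisker (n = 4). The groups overlap on every probe but Acta2 ILMN_2693895, and control replicate 2 is the lowest of the 8 arrays on 7 of the 11 probes.

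*Acta2* encodes the actin isoform that gives the myofibroblast stress fibre its force, and its 4 probes were all higher on average in the leukemic group. Values are on the log2 scale after background correction and quantile normalization of the arrays, and replicates 1 to 4 are given in that order. The brightest probe, ILMN_2693895, had values of 14.78, 14.58, 15.04 and 15.00 on the control arrays and 15.05, 15.08, 15.18 and 15.24 on the leukemic arrays. Every leukemic array was above every control array, but the lowest leukemic and the highest control value were only 0.00922 apart. For all probes kept, 2.21% had every leukemic array above every control array and 2.59% had the reverse. This was the only such member probe. Its log2 difference was 0.29 ± 0.11 (SE, n = 4 and 4), a fold of 1.22 with a 95% interval from 1.04 to 1.44, and it did not pass either test (q = 0.858, limma adjusted p = 0.600).

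The other *Acta2* probes gave differences of the same sign. Probe ILMN_2923445 had values of 13.06, 12.61, 13.42 and 13.12 in the control group and 13.50, 13.24, 13.47 and 13.54 in the leukemic group, and its log2 difference was 0.39 ± 0.15 (q = 0.622). All leukemic values but that of replicate 2 were above the highest control value. Probe ILMN_2710354 had values of 13.05, 12.72, 13.47 and 13.13 in the control group and 13.65, 13.09, 13.35 and 13.82 in the leukemic group, a log2 difference of 0.39 ± 0.18 (q = 0.658). Probe ILMN_2710353 had 12.60, 12.31, 12.88 and 12.77 against 13.11, 12.52, 12.79 and 13.14, a log2 difference of 0.25 ± 0.16 (q = 0.902). On both of these probes the groups overlapped, with leukemic replicates 1 and 4 above all control arrays. Leukemic replicate 2 was near the control mean on ILMN_2710354 and below all control arrays but replicate 2 on ILMN_2710353.

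The 4 probes report on 1 gene and are not independent of each other. Control replicate 2 was the lowest and leukemic replicate 4 the highest of the 8 arrays on each of them. Without control replicate 2 the differences were 0.20, 0.26, 0.24 and 0.14, for the brightest probe, ILMN_2710354, ILMN_2923445 and ILMN_2710353 in that order, and without leukemic replicate 4 they were 0.25, 0.27, 0.35 and 0.16. Leukemic replicate 4 was also the array with the highest B cell marker signal, and the part of this in the *Acta2* values was not tested. The brightest probe reached signals of 24317 to 36249, up to 82.8% of the highest signal on its array, and whether its differences were compressed there was not tested. The coding sequences of the actin genes are much alike, and whether these probes also captured other actins was not tested.

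*Actg2*, the gamma-actin of smooth muscle in the gut wall, was detected on all 8 arrays with a wider spread. Its values were 12.01, 11.20, 11.88 and 11.91 in the control group and 12.66, 11.92, 12.20 and 11.31 in the leukemic group. Control replicate 2 and leukemic replicate 4 both lay well below the other arrays of their groups. The log2 difference was 0.27 ± 0.26 (q = 0.543), and it was 0.09 without control replicate 2, 0.06 without leukemic replicate 1 and 0.51 without leukemic replicate 4.

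*Tagln* encodes transgelin, an actin cross-linking protein and an early marker of the smooth muscle programme. Its probe had values of 9.64, 9.10, 9.89 and 9.75 in the control group and 10.00, 9.91, 10.04 and 9.39 in the leukemic group, a log2 difference of 0.24 ± 0.19 (q = 0.775). Leukemic replicates 1 to 3 were above all control arrays, and leukemic replicate 4 was below all of them but replicate 2. The difference was 0.08 without control replicate 2 and 0.39 without leukemic replicate 4. *Cnn1*, which encodes the smooth muscle calponin, was not detected above background on any array of either group.

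Tropomyosins run along the actin filament and govern which myosins and other proteins reach it. *Tpm1* was among the brightest probes of the array and nearly flat, with values of 14.74, 14.93, 14.96 and 14.67 in the control group and 14.73, 14.98, 14.78 and 14.76 in the leukemic group. The leukemic values lay wholly within the range of the control values but for replicate 2, which was just above it. Its log2 difference was -0.01 ± 0.09, with a 95% interval from -0.22 to 0.19, and its signal reached 76.9% of the highest on the array. *Tpm2* had 3 probes, of which only ILMN_2487170 was detected on every array. That probe had values of 10.72, 11.07, 11.03 and 11.29 in the control group and 11.15, 11.42, 11.23 and 10.84 in the leukemic group, a log2 difference of 0.13 ± 0.15 (q = 0.960), and with single arrays left out it was 0.03 without control replicate 1, 0.05 without leukemic replicate 2, 0.22 without control replicate 4 and 0.24 without leukemic replicate 4. The other *Tpm2* probes, ILMN_2482209 and ILMN_2787172, were each detected on 1 array and were not tested.

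*Cald1*, which encodes caldesmon, an actin-binding inhibitor of myosin that calmodulin releases, had lower means in the leukemic group on both of its probes. Probe ILMN_1232081 had values of 8.73, 9.14, 8.54 and 8.72 in the control group and 8.18, 8.09, 8.11 and 8.74 in the leukemic group. Leukemic replicates 1 to 3 were below every control array, and leukemic replicate 4 was not. The log2 difference was -0.50 ± 0.18, a fold of 0.705 with a 95% interval from 0.534 to 0.931, and it did not pass either test (q for lower values 0.301, limma adjusted p = 0.600). It was -0.66 without leukemic replicate 4 and -0.38 without control replicate 2. The second probe, ILMN_2804261, had 8.36, 8.81, 8.48 and 8.44 against 8.43, 8.27, 8.31 and 8.47, a log2 difference of -0.15 ± 0.14, and it was -0.06 without control replicate 2. The gene makes several isoforms, and which of them each probe covers was not examined here.

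**Figure D2:**
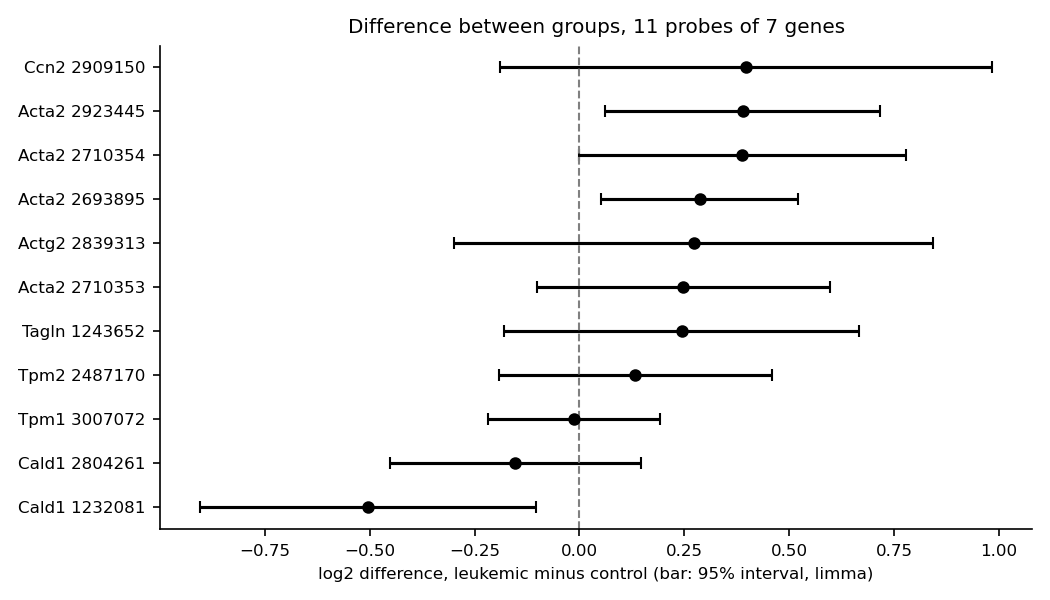
Log2 difference, leukemic minus control (horizontal axis), of each of the 11 probes kept, as a point with its 95% interval from limma. The intervals of 2 Acta2 probes lie above 0 and that of Cald1 ILMN_1232081 lies below 0, before any adjustment over the 13732 probes tested.

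*Ccn2* encodes connective tissue growth factor, a matricellular protein induced by transforming growth factor beta and by YAP, and it had the highest mean difference of the members. Its values were 12.59, 12.15, 13.48 and 12.47 in the control group and 12.71, 12.89, 13.02 and 13.65 in the leukemic group. Control replicate 3 was above every leukemic array but replicate 4. The log2 difference was 0.40 ± 0.27 (q = 0.518), and it was 0.20 without leukemic replicate 4, 0.22 without control replicate 2 and 0.67 without control replicate 3. *Postn*, which encodes the matrix protein periostin, was detected on 2 of the 8 arrays and was not tested.

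The authors' own normalized values gave the same signs for all 11 probes. When the rank product was run on these values for every probe of the array, with no filter on detection, an alternative chosen after seeing the data, *Acta2* ILMN_2923445 (q = 0.0457) and *Ccn2* (q = 0.0272) passed the threshold as higher in the leukemic group. In that setting 0.276% of all 25697 probes rose, and 2 of the 15 member probes were among them. The other 3 *Acta2* probes did not pass it, with q from 0.0634 to 0.197. With the filter on detection, the lowest q of any member probe on the authors' values was 0.0853. From its microarray of this stroma, the study reported over-expression of *Acta2* with leukemic cells. In separate experiments, it found *Acta2* among stromal activation genes that fell when retinoic acid signalling was inhibited in this line. By quantitative PCR it also reported a differential induction of *Acta2* in this line by human CLL cells. Neither of those experiments was analysed here. With the main processing used here no *Acta2* probe passed either test, which differs from the study's report on its microarray. Only *Acta2* ILMN_2923445 passed, on the authors' values with no filter. The reason for the difference was not tested. The members were chosen with results of these arrays known, so the counts are no independent evidence of a direction.

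**Figure D3:**
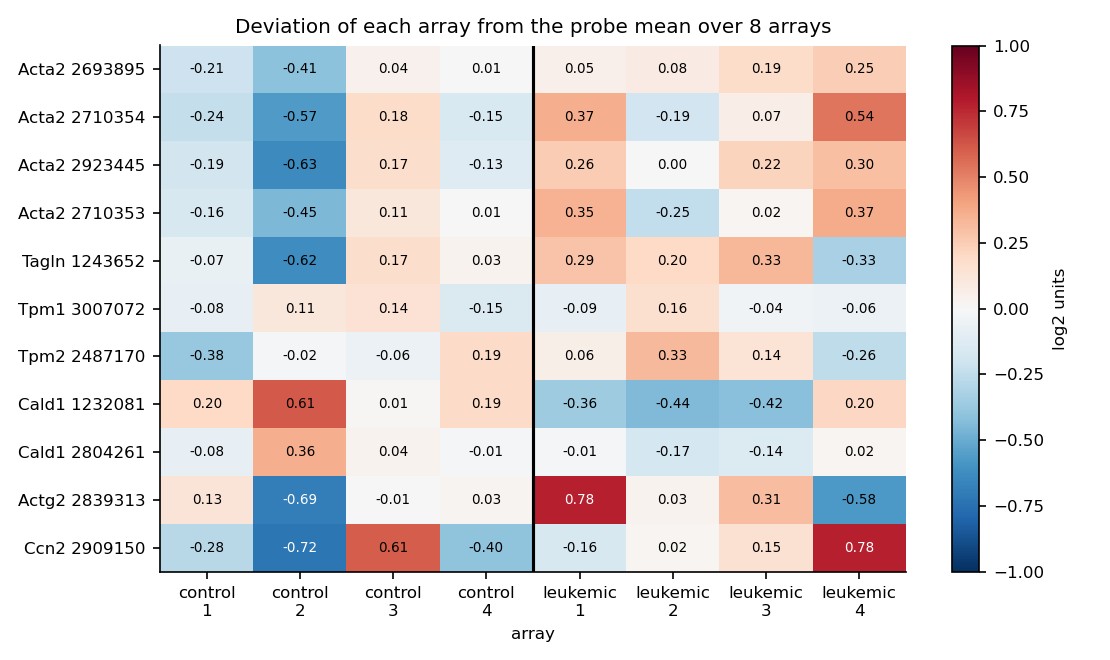
Deviation of each array (columns) from the mean over 8 arrays of each probe (rows), in log2 units, with the value printed in each cell. Control replicate 2 is low on the Acta2, Tagln, Actg2 and Ccn2 probes and high on both Cald1 probes, and leukemic replicate 4 is high on Acta2 and Ccn2 and low on Tagln, Tpm2 and Actg2.

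The members did not vary as 1 block over the arrays. Control replicate 2 was the lowest of the 8 arrays on 7 of the 11 probes, those of *Acta2*, *Tagln*, *Actg2* and *Ccn2*, and the highest on both *Cald1* probes. Leukemic replicate 4 was the highest array on 5 probes, those of *Acta2* and *Ccn2*, and the second lowest for *Tagln*, *Tpm2* and *Actg2*. As a description over the 8 arrays, which share 1 chip and include any difference between groups, the 4 *Acta2* probes had Pearson correlations of 0.75 to 0.97 with each other and 0.67 to 0.80 with *Ccn2*. *Tagln* and *Actg2* had a correlation of 0.87, and *Tagln* had correlations of -0.90 and -0.80 with the *Cald1* probes. *Actg2* and *Ccn2* had a correlation of -0.05.

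**Figure D4:**
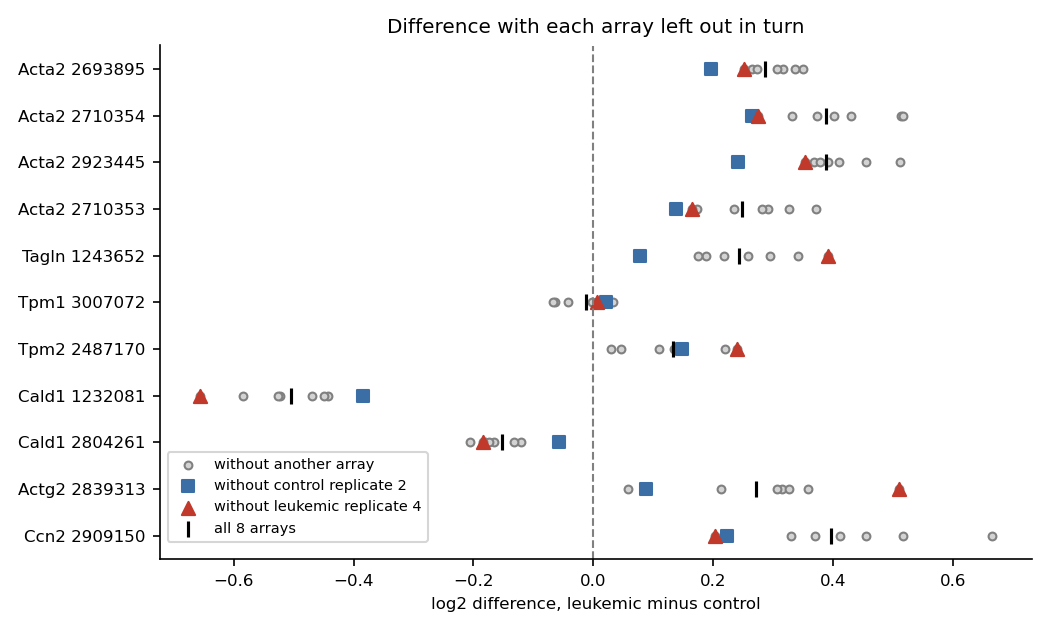
Log2 difference, leukemic minus control (horizontal axis), of each of the 11 probes with all 8 arrays and with each array left out in turn. Tagln and Actg2 are at 0.08 and 0.09 without control replicate 2 and at 0.39 and 0.51 without leukemic replicate 4, and the Acta2 probes stay above 0 and the Cald1 probes below 0 with any array left out.

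The probes most like the brightest *Acta2* probe over the 8 arrays, among 12931 probes with a symbol, were those of *Tmem192* (r = 0.981), *Arpc4* (r = 0.979), *Rilpl2* (r = 0.977), *Lrtm1* (r = 0.974) and *Sirt2* (r = 0.970). *Arpc4* encodes a subunit of the Arp2/3 complex, which branches actin filaments, and *Sirt2* a cytoplasmic deacetylase. None of the 5 passed the rank product threshold. They were picked for their likeness, which is therefore a description.

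Genes of the surrounding pathways were counted from lists chosen with earlier results known. Each list count here and below stands beside these shares of all probes kept: 48.8% had a higher leukemic mean, and 0.371% rose and 0% fell by the rank product. At an unadjusted limma p under 0.05, 3.83% of all probes kept were higher and 4.42% lower. Among the smooth muscle and SRF target genes, 29 probes of 19 genes were kept, 21 were higher and 8 lower in the leukemic group, none passed the rank product in either direction, and the median log2 difference was 0.13. The median ran from 0.09 to 0.16 with each array left out, lowest without leukemic replicate 1, and was 0.03 on the authors' values and 0.08 with no filter. At an unadjusted limma p under 0.05, 2 of these probes were higher and 1 was lower. *Mylk*, the kinase that starts smooth muscle contraction by phosphorylating the light chain of myosin, had values of 7.81, 7.01, 7.34 and 7.17 in the control group and 8.53, 7.76, 7.20 and 8.45 in the leukemic group on probe ILMN_2662602. Its log2 difference was 0.65 ± 0.29 (q = 0.150) on this probe and 0.53 ± 0.27 on ILMN_1219471. *Sorbs2*, an adaptor of stress fibres, had 0.62 ± 0.39, which was 0.36 without leukemic replicate 4, and *Csrp2*, a LIM protein of smooth muscle, had -0.46 ± 0.41, which was 0.05 without leukemic replicate 4.

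Among the actins, non-muscle myosins and focal adhesion genes, 38 probes were kept, 24 higher and 14 lower, none passed the rank product (4 higher and 1 lower at an unadjusted limma p under 0.05), and the median was 0.07. It ran from 0.03 to 0.10 with each array left out, lowest without leukemic replicate 1, and was 0.0086 with 1 probe per gene. *Actb*, the cytoplasmic beta-actin, had the largest difference on the dim probe ILMN_2846865 (0.53 ± 0.50, and 0.27 without control replicate 2), whereas its brightest probe ILMN_2698799 had a difference of 0.01 ± 0.08. Its remaining probes had 0.24 ± 0.10 (ILMN_1377923), 0.23 ± 0.12 (ILMN_2617433) and 0.34 ± 0.49 (ILMN_2588055). *Cdc42ep3*, an effector of Cdc42 that binds septins, had 0.41 ± 0.28, which was 0.10 without leukemic replicate 4. Without control replicate 3, 1 probe of this list, of *Actb*, passed the rank product as higher.

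Among the YAP and TEAD targets with the CCN family, 28 probes were kept, 18 higher and 10 lower, none passed the rank product (1 higher and 0 lower at an unadjusted limma p under 0.05), and the median was 0.03. It ran from 0.00092 without control replicate 4 to 0.11 without control replicate 1. *Crim1*, a transmembrane protein that binds bone morphogenetic proteins, had 0.77 ± 0.34 and *Amotl2*, an angiomotin that holds YAP in the cytoplasm, had 0.74 ± 0.36, which were 0.38 and 0.36 without leukemic replicate 4. *Ccn1*, a relative of *Ccn2* that also responds to YAP, had 0.45 ± 0.36, 0.32 ± 0.27 and 0.29 ± 0.27 on its 3 probes. These were 0.15, 0.04 and 0.11 without control replicate 2 and 0.17, 0.21 and 0.17 without leukemic replicate 4.

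Among the genes of fibroblast activation by transforming growth factor beta, 37 probes were kept, 22 higher and 15 lower, and none passed the rank product (3 higher and 2 lower at an unadjusted limma p under 0.05). Their median was 0.05, and it ran from -0.08 without leukemic replicate 4 to 0.09 without leukemic replicate 2 and was -0.08 with array weights. *Itga11*, the collagen-binding integrin subunit of myofibroblasts, came nearest to the threshold. Its probe ILMN_2603054 had values of 5.84, 5.07, 5.97 and 5.18 in the control group and 6.74, 5.98, 6.24 and 6.03 in the leukemic group, a log2 difference of 0.73 ± 0.25 (q = 0.0539). Every leukemic array was above every control array on it, as on 2.21% of all probes kept. Probe ILMN_2844032 had 0.69 ± 0.21 (q = 0.0663) and ILMN_2701778 had 0.48 ± 0.19, and the groups overlapped on both of these. That no probe of this list passed depended on the processing: 1 *Itga11* probe passed as higher on the authors' values, with no background correction, with an offset of 50 and with detection on all 8 arrays, and 2 passed with no filter and without control replicate 3. *Lrrc15*, a surface protein of activated fibroblasts, had -0.59 ± 0.44, which was -0.10 without leukemic replicate 4. *Lox*, which cross-links collagen, had 0.46 ± 0.32 and 0.04 without leukemic replicate 4.

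**Figure D5:**
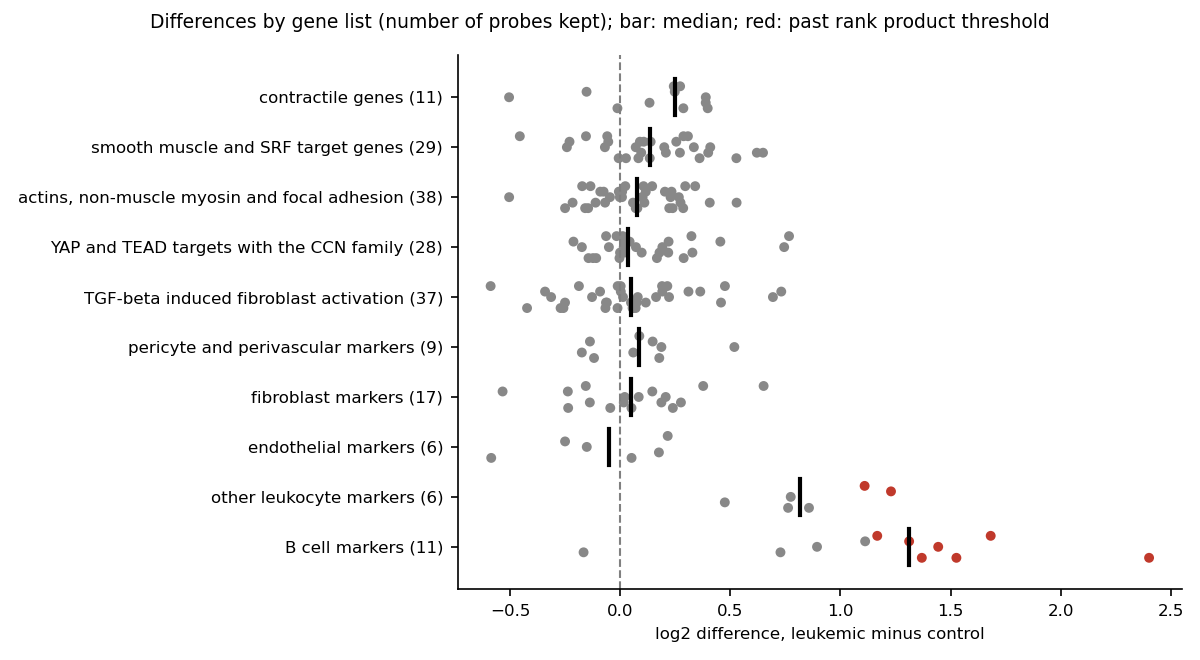
Log2 difference, leukemic minus control (horizontal axis), of every probe kept in each gene list, with the number of probes in brackets, the median as a bar and probes past the rank product threshold in red. The medians of the contractile genes and of the 4 pathway lists lie between 0.03 and 0.25 with no probe past the threshold, and that of the B cell markers lies at 1.31 with 7 of 11 past it.

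Markers of the other cells that the sorted stroma could hold were set beside these results. Of 9 pericyte and perivascular probes, 6 were higher and 3 lower with a median of 0.09, which ran from -0.07 without leukemic replicate 1 to 0.19 without leukemic replicate 4. *Kcnj8*, a potassium channel of pericytes, was at 0.52 ± 0.23 and at 0.36 without leukemic replicate 4, and its dim probe was detected on 6 arrays. *Pdgfrb*, a receptor for platelet-derived growth factor, was at 0.19 ± 0.15 and at 0.12 without leukemic replicate 4. The 3 lower pericyte probes were those of *Cspg4* (-0.17 ± 0.32), *Rgs5* (-0.14 ± 0.39) and *Anpep* (-0.12 ± 0.25). Without leukemic replicate 4, *Cspg4* was at 0.19 and *Rgs5* at 0.27. Of 17 fibroblast probes, 11 were higher and 6 lower with a median of 0.05, which ran from -0.0011 without leukemic replicate 4 to 0.15 without leukemic replicate 3. *Mfap5*, a microfibril protein, was at 0.65 ± 0.18, and *Lum*, the proteoglycan lumican, was at -0.53 ± 0.32 and at -0.24 without leukemic replicate 4. Of 6 endothelial probes, 3 were higher and 3 lower with a median of -0.05, which ran from -0.17 without leukemic replicate 2 to 0.12 without leukemic replicate 4. It was also above 0 with array weights (0.09) and with 1 probe per gene (0.05). *Flt1*, a receptor for vascular endothelial growth factor, was at -0.59 ± 0.31 and at -0.20 without leukemic replicate 4. *Pecam1*, an adhesion molecule of endothelial junctions, was at -0.25 ± 0.18 on probe ILMN_3147074 and at -0.17 without control replicate 2. On its other probe, ILMN_2700982, *Pecam1* was at -0.15 ± 0.25 and at 0.10 without leukemic replicate 4. The higher endothelial probes included that of *Plvap*, at 0.22 ± 0.19. None of these 3 lists had a probe past the rank product in either direction, and at an unadjusted limma p under 0.05 there was 1 higher pericyte probe, 1 higher fibroblast probe and no endothelial probe.

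With all 8 arrays and the processing used here, the lists that had probes past the rank product were those of blood cells. Of 11 B cell probes, 7 rose, none fell and the median was 1.31. Without leukemic replicate 4, 4 rose and the median was 0.49, and on the authors' values 1 rose and the median was 0.47. *Mzb1*, a chaperone of antibody-secreting and marginal zone B cells, had 2.40 ± 0.85 and *Cd79b*, a signalling chain of the B cell receptor, had 1.68 ± 0.50 on probe ILMN_2610822, and these were 1.46 and 1.10 without leukemic replicate 4. Of 6 probes of other leukocytes, 2 rose and none fell, with a median of 0.82. None rose without leukemic replicate 4, with a median of 0.49, or on the authors' values, with a median of 0.23. *Laptm5*, a lysosomal protein of blood cells, had 1.23 ± 0.50 and *Lyz2*, the lysozyme of myeloid cells, had 1.11 ± 0.39, and these were 0.61 and 0.70 without leukemic replicate 4. The median of the contractile probes was 0.24 without leukemic replicate 4 and 0.14 without control replicate 2. Without leukemic replicate 4 single contractile probes moved both ways, which their median does not show. *Ccn2* went from 0.40 to 0.20 and *Acta2* ILMN_2710354 from 0.39 to 0.27, whereas *Actg2* went from 0.27 to 0.51 and *Tagln* from 0.24 to 0.39. The part of blood cell RNA in the contractile gene values was not tested.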

How the data were processed

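RNA of 4 control and 4 leukemic samples was measured on 8 Illumina bead arrays of 1 chip. The authors deposited, for 25697 probes, an intensity per array that was not normalized and a detection p-value, and a log2 matrix that the authors normalized with the lumi package; its exact transformation is not given in the sources used here. The bead number behind each value limits the precision. Symbols came from the platform annotation, 23978 probes having 1 symbol and 1719 none.

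Intensities were corrected and quantile normalized with neqc (offset 16) of limma 3.58.1 in R 4.3.3. Probes detected at p below 0.05 on at least 4 arrays were kept (13732), and 11965 were left out. The comparison used an unpaired rank product over 16 array pairs, written for this purpose, with 100 permutations within arrays, and a 2-sided limma fit with a trend, adjusted over all probes by Benjamini-Hochberg, both at 0.05. Differences and SE came from limma. Both were tested on simulated data.

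The members and lists were chosen with earlier results of these data known. Every member probe was named; for each other list 2 to 4 probes or genes were named, taking those past the rank product threshold first and then the largest differences. A result of the actin and focal adhesion list that this rule names is not reported here. The *Actb* probes other than ILMN_2846865 and the lower pericyte probes were named after their values were seen. Alternatives were no background correction, an offset of 50, median scaling, the authors' values, no filter, detection on all 8 arrays, 1 probe per gene, array weights, a replicate block and each array left out.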

Additional observations from a re-analysis of the deposited data

Results flagged for a closer look

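Over the 11 contractile gene probes kept and those not kept, 30 groups of 4 values were examined for a single array far from the others of its group, and chance flags about 1 in 20 such groups. *Cald1* ILMN_1232081 in the leukemic group had its highest value, 8.74, on replicate 4, where the other arrays lay between 8.09 and 8.18. *Actg2* in the control group had its lowest value, 11.20, on replicate 2, where the other arrays lay between 11.88 and 12.01.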

How the results depend on the processing

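Of 194 log2 differences of the member probes under the alternatives, 187 kept their sign and their side of the threshold. The 2 that gained a call were those of *Acta2* ILMN_2923445 and *Ccn2* on the authors' values with no filter. The 5 that changed sign were all of *Tpm1*, from a value of -0.01: 0.013 with array weights and 0.0060 to 0.033 without control replicates 2 and 3 and leukemic replicates 1 and 4. Over all 8 arrays left out in turn, its difference ran from -0.067 to 0.033. Array weights moved *Acta2* ILMN_2710353 to 0.12, *Acta2* ILMN_2710354 to 0.24, *Ccn2* to 0.22 and *Tpm2* to 0.23. Median scaling moved *Acta2* ILMN_2693895 to 0.17, *Tpm2* to 0.21 and *Tpm1* to -0.11. The authors' values moved the *Cald1* probes to -0.29 and -0.09. The count of all probes that rose, 51, was 20 on the authors' values, 29 with no background correction, 28 with an offset of 50 and 6 to 55 with each array left out, with the lowest count without leukemic replicate 4 and 18 without control replicate 2. The count that fell, 0, was 2 with 1 probe per gene, 16 on the authors' values, 87 on them with no filter, 8 with no filter and 0 to 19 with each array left out, with the highest count without leukemic replicate 2. Limma called 0 probes in all these settings. Median scaling moved the median of all probes to 0.04. The labels give both groups replicates 1 to 4. Same-numbered arrays correlated in their deviations from the group means at 0.233, 0.256, 0.181 and 0.0323. Leukemic replicates 1 to 3 each correlated best with the control array of the same number. Leukemic replicate 4 correlated best with control replicate 3 (0.174). This check does not settle whether the numbers mark pairs, and the main tests were unpaired. With the replicate block, 56 probes rose, 21 fell and no contractile gene probe was called. The cause of these changes was not tested. With 4 arrays a group, the 95% interval of the *Ccn2* difference ran from -0.19 to 0.98, and that of *Acta2* ILMN_2923445, of nearly the same size, from 0.06 to 0.72.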
